A study of Mus musculus with 30 samples.

Results

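Bone from mice given 12 days of light-driven (optogenetic) stimulation was compared with bone from naive mice, across all genes measured. The tissue was the calcaneus, the heel bone on which the calf muscles pull through the Achilles tendon. The members were the 3 libraries labelled bone, stimulated, day 12, and the 3 labelled bone, naive, day 0, which are 6 of the 30 libraries of the series. Series and labels describe optogenetic loading of tendon and bone, and every sample has the genotype Acta1,Ai32. Acta1 encodes skeletal muscle actin, and Ai32 is an allele that makes cells with Cre recombinase produce channelrhodopsin fused to the yellow fluorescent protein eYFP. The labels do not say how the Acta1 allele drives Cre, nor the age of the mice. The titles of the stimulated samples also hold the word control, while their treatment label places them in the stimulated group. Alongside stand 3 libraries of unstimulated bone at day 12 and 3 of stimulated bone at day 5. The labels do not say that replicates are separate animals, nor whether stimulated and unstimulated bones came from the same mice. P-values therefore speak to the spread between libraries alone, which may be technical. That spread was estimated over all bone libraries, those of unstimulated bone at day 5 included. Naive bone was sampled at day 0 and the others later, so that elapsed time, handling and stimulation cannot be told apart in a comparison with naive.

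Bone is renewed by cells with separate tasks. Osteoblasts lay down a matrix that is mostly type I collagen and mineralise it, under the transcription factors Runx2 and Sp7. Some of them become osteocytes, which sit in the matrix, sense strain and signal through secreted factors such as sclerostin, the product of Sost. Osteoclasts, which descend from the monocyte lineage, resorb bone when the ligand RANKL binds its receptor. Loading is known to favour formation over resorption, and a whole bone also holds cartilage remnants, tendon insertion, fat, vessels and blood-forming marrow.

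Library totals of the 6 libraries ran from 19.3 to 27.8 M counts (M for mega). The defining markers of bone (Sp7, Bglap, Ibsp, Dmp1, Mepe, Sost, Acp5 and Ctsk) had counts in all 6. Counts of eYFP, in CPM (counts per M of the scaled library total), were 369, 573 and 568 in stimulated replicates 1 to 3 and 760.2, 574 and 331 in naive ones, and did not pass the test (log2 fold change -0.14 ± 0.27, adjusted p = 0.799). The Cre row held 0 to 8 counts in these libraries. Naive replicate 3 had a score of -103 on the leading principal component of the bone libraries, where the others lay between -37.8 and 42.7. Its erythroid genes took 5.36% of the counts, against 1.99% and 2.10% in the other naive libraries, and its muscle fibre genes 0.0296%, against 2.61% and 1.44%. These values stand again beside the results they touch.

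After 12 days of stimulation, several genes of bone matrix formation, type I collagen among them, stood lower than in naive bone, and several matrix glycoprotein genes, such as decorin, stood higher. Of 18851 genes tested, 393 rose and 463 fell, which is 4.54% of all genes, at an adjusted p below 0.05. In 223 of them the log2 fold change exceeded 1 in size, and the median over all genes was -0.000807. Scaling by total counts, with no correction for composition, gave 382 higher and 249 lower genes, so that the higher share went from 45.9% to 60.5%. In 850 of the 856 called genes the stimulated libraries lay wholly above or below the naive ones, a pattern that 25.5% of all genes showed. The test was edgeR's quasi-likelihood test over 14 bone libraries, and log2 fold changes are given ± SE. The count rested on single libraries: it was 108 without naive replicate 2, 192 without naive 3, 1307 without naive 1, 173 without stimulated 2, 546 without stimulated 1 and 1092 without stimulated 3. A core of 34 higher and 55 lower genes passed in all 6 of these fits. A fit of the 6 libraries alone called 5 genes, 4 higher and 1 lower, and found 3409 at an unadjusted p below 0.05, against 4367 over all bone libraries.

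**Figure D1:**
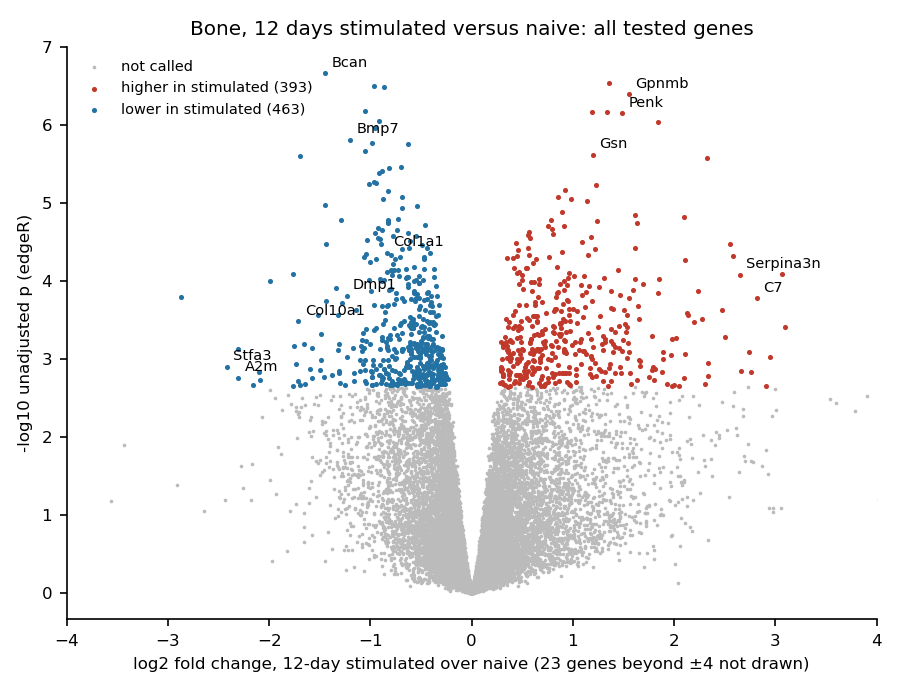
Each point is 1 of the tested genes, with the log2 fold change of 12-day stimulated over naive bone on the x axis and the -log10 of the unadjusted edgeR p on the y axis, and 23 genes beyond 4 on the log2 scale are not drawn. The 393 genes that rose are red and the 463 that fell are blue, with Gpnmb and Penk among the higher and Bcan and Bmp7 among the lower labelled genes.

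The osteoblast genes that passed were all lower. Of the 26 measured, 11 fell and 0 rose, where 2.46% of all genes fell, and the list's median log2 fold change was -0.54. Together the list took 12.9%, 13.9% and 13.5% of the counts of naive replicates 1 to 3 and 9.46%, 8.69% and 7.13% of those of stimulated replicates 1 to 3. The groups did not overlap. Most of the share was Col1a1, Col1a2 and Sparc, at mean levels of 46686, 57698 and 20445 CPM in naive bone. In stimulated bone these 3 genes stood at 26143, 33215 and 16182 CPM. A lower share can come from fewer osteoblasts, less RNA per cell or a larger part of other tissue, which cannot be told apart in bulk tissue.

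Transcription factors of the lineage were among the fallen genes. Runx2, which commits cells to the lineage, stood at 91.1, 76.8 and 72.6 CPM in stimulated and 108, 123 and 126 CPM in naive libraries (log2 fold change -0.57 ± 0.10, adjusted p = 0.0117). Sp7, also called osterix, which acts after Runx2, stood at 162, 144 and 131 against 206, 222 and 224 CPM (-0.57 ± 0.11, adjusted p = 0.0148). In both the highest stimulated library lay below the lowest naive one.

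Matrix and mineralisation genes followed the same direction. Col1a1, the main chain of type I collagen, went from 44729, 48771 and 46558 CPM to 27703, 28143 and 22582 CPM (-0.84 ± 0.14, adjusted p = 0.00978), and its partner chain Col1a2 from 54877, 59064 and 59152 to 36762, 33624 and 29259.5 CPM (-0.80 ± 0.13, adjusted p = 0.00981). Smpd3, a sphingomyelinase needed for mineralisation, stood at 207, 168 and 143 against 299, 363 and 335 CPM (-0.94 ± 0.12, adjusted p = 0.0041). Bglap, which encodes osteocalcin, stood at 1473, 1135 and 1141 against 1781, 2479 and 2665 CPM (-0.89 ± 0.19, adjusted p = 0.0274), and its near-identical copies Bglap2 and Bglap3 can exchange reads with it, so its level is uncertain. The potassium channel gene Kcnk1 (-0.93 ± 0.14, adjusted p = 0.00751), the phosphatase gene Phospho1, which releases phosphate for mineral (-0.44 ± 0.10, adjusted p = 0.0304), the collagenase gene Mmp13 (-0.72 ± 0.18, adjusted p = 0.0421) and Cgref1 (-0.77 ± 0.15, adjusted p = 0.0174) also fell. In each of these 8 genes all stimulated libraries lay below all naive ones.

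Not every osteoblast gene passed. Alkaline phosphatase, Alpl, stood at 469.8, 389 and 294 against 504, 585 and 563 CPM (-0.52 ± 0.15, adjusted p = 0.0697) and osteopontin, Spp1, at 2555, 1585 and 1483 against 2367, 2664 and 3808 CPM (-0.65 ± 0.23, adjusted p = 0.11). Bone sialoprotein, Ibsp, was at 1439.6, 909 and 863 and 882, 968 and 1155 CPM (0.10 ± 0.19, adjusted p = 0.805), with the groups overlapping. Stimulated replicate 1 was the highest of its group for these 3 genes, and without it the fold change of Ibsp was -0.18. Smpd3 and Kcnk1 passed whichever library was left out, and the calls of the other genes named here did not. The count of 11 became 3 without naive replicate 2, 4 without naive 3, 5 without stimulated 2, 8 without stimulated 3, 12 without naive 1 and 14 without stimulated 1, and the highest adjusted p among these fits was 0.0576 for Runx2, 0.0725 for Sp7 and 0.0539 for Col1a1. The list's median stayed between -0.68 and -0.44 in them.

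**Figure D2:**
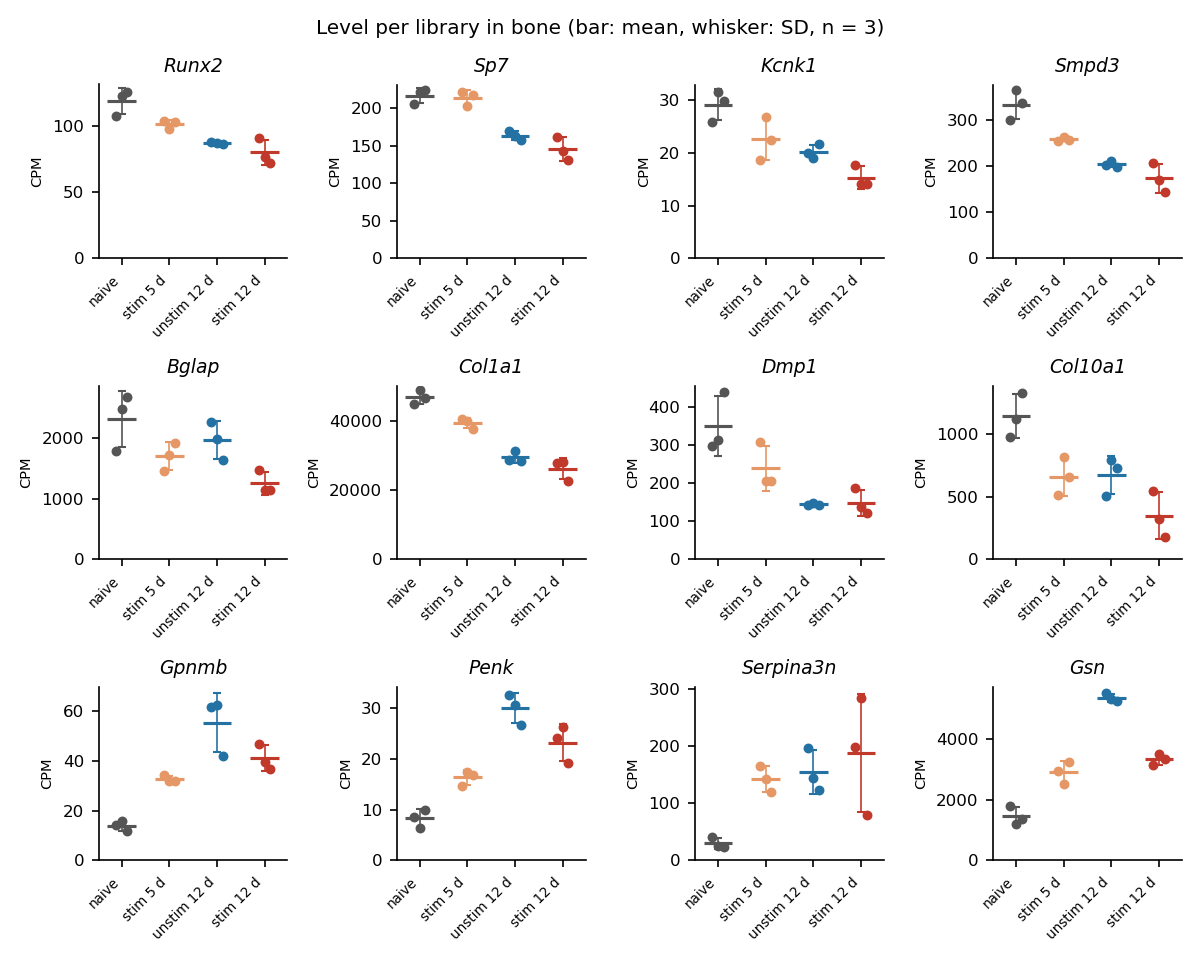
Each point is 1 library's level in CPM, with the mean as a bar and the SD as a whisker (n = 3), in naive bone, 5-day stimulated, 12-day unstimulated and 12-day stimulated bone. Runx2, Sp7, Kcnk1, Smpd3, Bglap, Col1a1, Dmp1 and Col10a1 were lower in 12-day stimulated than in naive bone, and Gpnmb, Penk, Serpina3n and Gsn were higher.

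Runx2 protein binds the letters TGTGGT, or ACCACA on the other strand, and osteocalcin is a textbook target. The 3 fallen osteoblast genes whose promoter holds these letters are shown because they moved together. They are the 250 bases before the RefSeq start site, on GRCm38.p6, read 5′ to 3′ on the gene's strand, with the match in capitals.
Runx2 (chr17:44814628-44814877, minus strand, match 80 to 75 bases before the start): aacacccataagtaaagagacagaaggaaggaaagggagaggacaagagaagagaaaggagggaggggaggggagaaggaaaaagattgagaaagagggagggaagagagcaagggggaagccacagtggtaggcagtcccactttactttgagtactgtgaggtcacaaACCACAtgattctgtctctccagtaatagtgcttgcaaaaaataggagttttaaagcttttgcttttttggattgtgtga
Bglap (chr3:88384467-88384716, minus strand, match 132 to 127 bases before the start): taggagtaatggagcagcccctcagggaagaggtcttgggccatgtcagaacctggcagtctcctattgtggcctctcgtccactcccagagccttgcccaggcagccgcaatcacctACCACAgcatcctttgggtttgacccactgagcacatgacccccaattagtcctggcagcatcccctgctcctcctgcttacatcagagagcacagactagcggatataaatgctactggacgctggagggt
Mmp13 (chr9:7272264-7272513, plus strand, match 118 to 113 bases before the start): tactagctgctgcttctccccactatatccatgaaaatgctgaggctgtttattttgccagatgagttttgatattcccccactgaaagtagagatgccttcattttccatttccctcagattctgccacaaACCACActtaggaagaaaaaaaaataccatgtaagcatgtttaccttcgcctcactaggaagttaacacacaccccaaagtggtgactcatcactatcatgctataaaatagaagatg
Of the 26 osteoblast genes, 15 had such a window in RefSeq and 5 of these held the letters on either strand. Of the 7 fallen genes with a window, 3 held them in at least 1 window, against 15.9% of the 27025 genes with a window. Counted by window, 14.05% of all 32851 held them. A match describes the letters only. Windows of Spp1 and Car12, which did not pass the test, held them too.

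Osteocytes, the cells that sense load, gave a mixed picture. Of the 8 defining osteocyte genes, Dmp1 fell and none rose. Dmp1, a matrix phosphoprotein of early osteocytes, went from 298, 313 and 442 CPM in naive to 188, 137 and 123 CPM in stimulated libraries (log2 fold change -1.23 ± 0.23, adjusted p = 0.0154). Sost stood at 27.6, 14.5 and 11.5 against 25.3, 23.6 and 29.9 CPM (-0.56 ± 0.35, adjusted p = 0.37), with stimulated replicate 1 inside the naive range. Mepe, a mineralisation regulator, stood at 47.2, 20.3 and 22.5 against 22.3, 26.4 and 25.3 CPM (0.28 ± 0.34, adjusted p = 0.658), again with replicate 1 highest and with a fold change of -0.21 without it. Phex, a peptidase gene of phosphate balance (-0.37 ± 0.18, adjusted p = 0.243), did not pass. Fgf23, the phosphate hormone, was under 1 CPM in all 6 libraries (0.30 ± 0.92, adjusted p = 0.879). The call of Dmp1 ended without naive replicate 2 or 3 or stimulated 2, where its adjusted p reached 0.0674. Genes known to answer loading in bone, such as Ptgs2, Fos and Wnt1, showed 0 higher and 2 lower members of 25, Dmp1 and Tnc. The share of all genes that fell was 2.46%. Among genes of mechanosensitive channels and junctions, Kcnk2, a stretch-sensitive potassium channel gene (-0.91 ± 0.12, adjusted p = 0.00339), and Gja1, the main gap junction gene of bone (-0.62 ± 0.13, adjusted p = 0.0229), fell, while 17 others of the list did not pass. YAP and SRF targets, which respond to stiffness and tension, held 0 calls of 26.

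Few osteoclast genes passed, and those were lower. Of 22 genes, 3 fell and 0 rose, where 2.46% of all genes fell, and the median was -0.37. Siglec15, a receptor that promotes osteoclast maturation, stood at 2.62, 1.695 and 1.58 against 4.40, 3.61 and 6.57 CPM (log2 fold change -1.31 ± 0.29, adjusted p = 0.0293). Mmp9, a gelatinase gene of osteoclasts and neutrophils, stood at 1671, 1061 and 1096 against 2081, 1934 and 2401 CPM (-0.75 ± 0.17, adjusted p = 0.0306), and Rufy4 also fell (-0.76 ± 0.17, adjusted p = 0.0304). The resorption genes Acp5, at 1796, 1034 and 1081 against 1605, 1647 and 2462 CPM (-0.55 ± 0.22, adjusted p = 0.16), and Ctsk, at 1893, 1016 and 928 against 1533, 1628 and 2131 CPM (-0.46 ± 0.23, adjusted p = 0.254), overlapped between groups and did not pass. The RANKL gene Tnfsf11 was at 8.88, 6.27 and 5.89 against 8.45, 8.38 and 15.9 CPM (-0.64 ± 0.25, adjusted p = 0.155) and its decoy receptor Tnfrsf11b at 17.2, 17.0 and 9.36 against 15.3, 18.2 and 17.3 CPM (-0.22 ± 0.29, adjusted p = 0.681). Il34, an alternative ligand of the macrophage growth factor receptor, rose from 13.9, 10.1 and 11.9 to 17.9, 17.0 and 20.7 CPM (0.63 ± 0.13, adjusted p = 0.0203). All 3 falls were lost without naive replicate 2 or 3 or without stimulated 2 or 3, while 11 osteoclast genes fell without stimulated replicate 1. The rise of Il34 was lost without naive 2 or 3.

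Cartilage and growth plate genes were lower in part. Of 23 genes, 4 fell and 0 rose, where 2.46% of all genes fell, with a median of -0.41. Col10a1, the collagen of hypertrophic chondrocytes, went from 976, 1119 and 1324 CPM to 547, 322 and 176 CPM (log2 fold change -1.71 ± 0.34, adjusted p = 0.0222). Ihh, the hedgehog ligand of the same cells, went from 19.3, 19.7 and 17.0 to 10.7, 7.57 and 7.95 CPM (-1.10 ± 0.24, adjusted p = 0.0302). Col11a1, at 762, 540.5 and 553 against 1016, 1188 and 1273 CPM (-0.91 ± 0.14, adjusted p = 0.00812), and Col11a2, at 1431, 1185 and 1177 against 2056, 2246 and 2186 CPM (-0.77 ± 0.13, adjusted p = 0.0108), encode a collagen that nucleates fibrils in cartilage and bone. The cartilage collagen gene Col2a1 stood at 3745, 1647 and 1356 CPM in stimulated replicates 1 to 3, against 2957, 2868 and 4040.1 CPM, and did not pass (-0.55 ± 0.33, adjusted p = 0.35). Some members lay above 0 without passing. Prg4 stood at 2836, 3602 and 746 against 692, 516 and 811 CPM (1.83 ± 0.54, adjusted p = 0.0753), with the groups overlapping. Comp (0.65 ± 0.23, adjusted p = 0.117) and Chad (0.42 ± 0.26, adjusted p = 0.362) did not pass either. The list's median was -0.95 without stimulated replicate 1 and -0.20 without naive 3, and Col11a1 alone of the list passed in all 6 fits.

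Collagens as a family split. Of 11 fibrillar collagen genes 5 fell and 0 rose (median -0.55), where 2.46% of all genes fell. The 5 were Col1a1, Col1a2, Col11a1, Col11a2 and Col24a1, a minor collagen of bone (-0.58 ± 0.12, adjusted p = 0.0217). Among the 23 others, Col10a1, Col8a1 (-0.81 ± 0.17, adjusted p = 0.0266) and Col13a1 (-0.49 ± 0.12, adjusted p = 0.0436) fell, while the basement membrane gene Col4a5 (0.97 ± 0.17, adjusted p = 0.0122) and Col14a1, a collagen of fibroblast fascia (1.29 ± 0.32, adjusted p = 0.0466), rose. Of the enzymes that finish collagen, Loxl4, a crosslinking oxidase gene, went from 52.7, 48.1 and 57.0 to 33.8, 23.3 and 18.6 CPM (-1.06 ± 0.17, adjusted p = 0.00981), and P3h1, a prolyl hydroxylase gene mutated in brittle bone disease, also fell (-0.47 ± 0.11, adjusted p = 0.039). Loxl4 and Col11a1 passed in all 6 fits, and without naive replicate 2 only 1 fibrillar collagen passed.

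Several proteoglycans and matrix glycoproteins were higher. Of 34 genes, 7 rose, where 2.08% of all genes rose, and 2 fell, with a median of 0.48. Fbln1, a fibulin of elastic and basement membrane matrix, stood at 99.1, 73.5 and 73.7 against 34.3, 33.3 and 37.4 CPM (log2 fold change 1.23 ± 0.16, adjusted p = 0.0041). Osteoglycin, Ogn, stood at 139, 124 and 111 against 71.2, 62.3 and 73.6 CPM (0.85 ± 0.12, adjusted p = 0.00504) and decorin, Dcn, a collagen-binding proteoglycan, at 3334, 3076 and 2171 against 1466, 1415 and 1552 CPM (0.95 ± 0.18, adjusted p = 0.0165). Thbs4, a thrombospondin of tendon and muscle, stood at 883, 1139 and 629 against 386, 225 and 142 CPM (1.82 ± 0.43, adjusted p = 0.0402). Mfap4 (1.13 ± 0.25, adjusted p = 0.0318), Aspn (0.82 ± 0.21, adjusted p = 0.0477) and Podn (0.66 ± 0.15, adjusted p = 0.0305) completed the higher members, and tenascin C, Tnc (-0.60 ± 0.13, adjusted p = 0.0304), and the fibrillin gene Fbn2 (-0.86 ± 0.21, adjusted p = 0.0402) fell. The stimulated libraries of Fbln1, Ogn, Dcn and Thbs4 all lay above the naive ones. The list took 2.12%, 2.48% and 1.14% of the counts of stimulated replicates 1 to 3 and 1.26%, 1.11% and 1.24% of those of naive ones, so that stimulated replicate 3 lay within the naive range. Fbln1 and Ogn passed in all 6 fits, and the 7 higher genes became 2 without naive replicate 2 or 3 or stimulated 2, 4 without stimulated 1 and 12 without stimulated 3.

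Tendon fibroblast genes, relevant because the Achilles tendon inserts on this bone, held 4 higher and 2 lower members of 21 and a median of 0.82. Over all genes, 2.08% rose and 2.46% fell. The 2 lower members are not singled out here. Mkx, a transcription factor of tendon cells, stood at 16.6, 14.98 and 15.4 against 9.44, 9.83 and 9.08 CPM (0.73 ± 0.16, adjusted p = 0.0303), and Dcn, Col14a1 and Thbs4, named above, were the other higher members. Without naive replicate 2 or 3, 0 members passed in either direction. Muscle fibre genes took 1.77%, 3.65% and 5.56% of the counts of stimulated replicates 1 to 3 and 2.61%, 1.44% and 0.0296% of those of naive ones. Of the 34, 33 had a log2 fold change above 0 (median 1.36) and 0 passed, and Acta1 stood at 2741, 5782 and 8615 against 4209, 2157 and 31.5 CPM (1.42 ± 1.12, adjusted p = 0.482). The part of muscle or tendon tissue in the higher matrix genes was not tested.

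**Figure D3:**
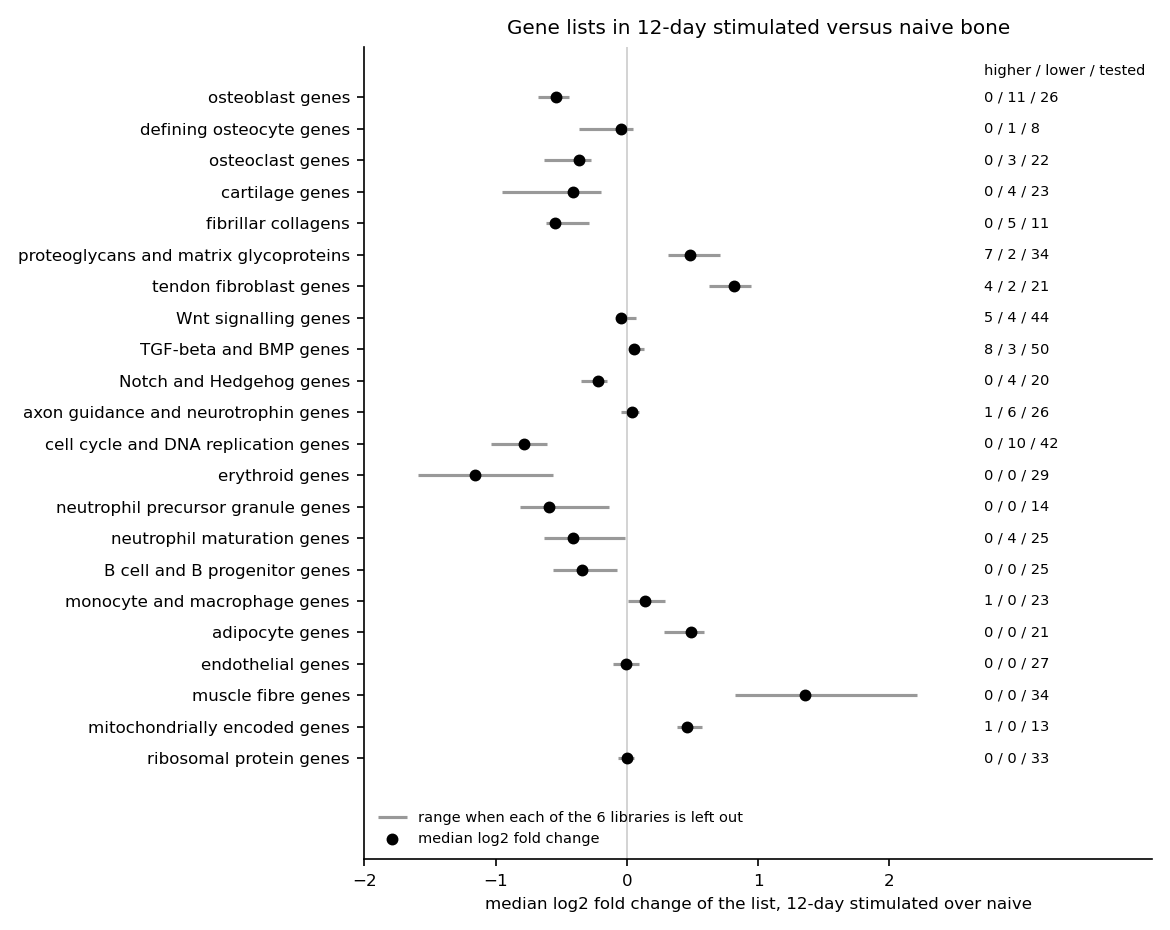
Each black point is the median log2 fold change of a gene list between 12-day stimulated and naive bone, on the x axis, and each grey line is the range of that median when each of the 6 libraries is left out in turn. The numbers at the right count members that rose, fell and were tested, such as 0, 11 and 26 for osteoblast genes and 7, 2 and 34 for matrix glycoproteins.

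Among Wnt genes, which drive bone formation, inhibitors and receptors moved both ways. Of 44, 5 rose and 4 fell, where 2.08% of all genes rose and 2.46% fell. Notum, an enzyme that inactivates Wnt ligands, went from 18.2, 20.4 and 20.9 to 11.9, 10.4 and 9.32 CPM (log2 fold change -0.91 ± 0.10, adjusted p = 0.00157). Lrp4, a receptor through which sclerostin acts, went from 159, 161 and 155 to 111, 122 and 105 CPM (-0.49 ± 0.08, adjusted p = 0.00885). Lgr6, a receptor of the Wnt-enhancing R-spondins that marks osteoprogenitors, went from 18.7, 23.8 and 21.6 to 12.8, 12.4 and 9.14 CPM (-0.90 ± 0.14, adjusted p = 0.00874), and the ligand gene Wnt5b also fell (-0.51 ± 0.13, adjusted p = 0.0442). The secreted inhibitor genes Sfrp1 and Dkk2 rose, Sfrp1 at 30.3, 53.5 and 16.3 against 12.5, 8.66 and 12.9 CPM (1.56 ± 0.34, adjusted p = 0.0307), and Dkk2 at 24.7, 26.6 and 19.9 against 10.5, 5.95 and 10.99 CPM (1.37 ± 0.26, adjusted p = 0.018). The other higher genes were the coreceptor gene Lrp6 (0.30 ± 0.07, adjusted p = 0.0403), the ligand gene Wnt11 (0.73 ± 0.19, adjusted p = 0.0481) and the receptor gene Lgr5 (1.35 ± 0.35, adjusted p = 0.0494). Notum, Lrp4 and Lgr6 passed in all 6 fits, and 0 Wnt genes were called higher without naive replicate 2 or without stimulated 2.

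BMP and TGF-beta genes, which govern osteoblast formation and matrix output, held 8 higher and 3 lower members of 50. The shares over all genes were 2.08% higher and 2.46% lower. The ligand gene Bmp7 went from 16, 18.2 and 20.5 to 9.09, 7.37 and 7.38 CPM (log2 fold change -1.20 ± 0.14, adjusted p = 0.00219). Its libraries did not overlap between the groups. Extracellular antagonists of such ligands that rose were Fst (0.58 ± 0.13, adjusted p = 0.0285), Chrdl1 (0.61 ± 0.14, adjusted p = 0.0316) and Chrd (0.52 ± 0.13, adjusted p = 0.0411). The intracellular brakes of the pathway, Smad7 (-0.52 ± 0.09, adjusted p = 0.0126) and Smad6 (-0.42 ± 0.09, adjusted p = 0.024), fell. Ligand and receptor genes Tgfb3 (0.49 ± 0.10, adjusted p = 0.0235), Inhbb (0.82 ± 0.17, adjusted p = 0.0235), Acvr2a (0.64 ± 0.13, adjusted p = 0.0223) and Tgfbr3 (0.51 ± 0.09, adjusted p = 0.0142) rose. Bmp7 passed in all 6 fits, and without naive replicate 2 only 1 gene was called higher and 2 lower.

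In the Notch and Hedgehog list 4 of 20 genes fell and 0 rose, where 2.46% of all genes fell. Hey1, a Notch target that restrains Runx2, stood at 19.3, 21.7 and 18.8 against 37.0, 35.4 and 36.6 CPM (log2 fold change -0.87 ± 0.09, adjusted p = 0.00146), and passed in all 6 fits. The Hedgehog receptor and target gene Ptch1 stood at 45.6, 42.5 and 37.2 against 58.7, 56.3 and 66.1 CPM (-0.53 ± 0.12, adjusted p = 0.0305), and Ihh and Heyl (-0.54 ± 0.14, adjusted p = 0.0494) fell as well. Axon guidance genes, several of which are made by osteoblasts, held 6 lower and 1 higher members of 26. Over all genes, 2.46% fell and 2.08% rose. The netrin receptor gene Unc5b (-0.83 ± 0.12, adjusted p = 0.00703) and the Slit receptor gene Robo2 (-0.95 ± 0.16, adjusted p = 0.00993) fell and passed in all 6 fits. Their partners Slit2 (-0.72 ± 0.13, adjusted p = 0.0126) and Slit3 (-0.50 ± 0.10, adjusted p = 0.0235), the semaphorin gene Sema3d (-0.65 ± 0.11, adjusted p = 0.0126) and its coreceptor gene Nrp2 (-0.49 ± 0.11, adjusted p = 0.0304) fell too, while the neurotrophin receptor gene Ntrk2 rose (0.85 ± 0.16, adjusted p = 0.0148). Without naive replicate 2, 3 guidance genes and 1 Notch or Hedgehog gene were called lower.

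The genes with the largest rises, by a rule on size and separate groups, included secreted and surface proteins. Serpina3n, a serine protease inhibitor induced in inflammation, stood at 199.5, 285 and 79.9 against 40.4, 25.0 and 24.4 CPM (log2 fold change 2.65 ± 0.43, adjusted p = 0.0125), and its neighbour Serpina3m at 6.98, 8.32 and 2.24 against 0.852, 0.609 and 0.602 CPM (3.06 ± 0.52, adjusted p = 0.0124). C7, a component of the membrane attack complex of complement, stood at 24.4, 18.0 and 12.3 against 4.51, 0.749 and 2.31 CPM (2.81 ± 0.50, adjusted p = 0.016). Apod, a lipid carrier, stood at 319.7, 365 and 168 against 105, 43.8 and 36.7 CPM (2.20 ± 0.43, adjusted p = 0.0223). In these 4 genes stimulated replicate 3 was the lowest of its group and still lay above every naive library. Nox4, an oxidase gene (1.97 ± 0.42, adjusted p = 0.0278), the protease gene Adamts8 (2.05 ± 0.52, adjusted p = 0.0492) and the mast cell tryptase gene Tpsb2 (2.02 ± 0.43, adjusted p = 0.0277) rose. Cma1, which encodes mast cell chymase and comes from the mast cell list, rose with overlapping groups (1.80 ± 0.45, adjusted p = 0.0459). Il11ra2, a receptor of interleukin 11, rose in 2 gene entries (2.58 ± 0.42, adjusted p = 0.00981, and 2.55 ± 0.40, adjusted p = 0.00869), and the lymphoid chemokine genes Ccl21a (2.27 ± 0.43, adjusted p = 0.0215) and Ccl21b (2.34 ± 0.56, adjusted p = 0.0431) rose. These have near-identical copies in the mouse genome, so the division of reads among them is uncertain. The calls of Serpina3n and both Il11ra2 entries were lost without naive replicate 2 alone, and each of the others in 2 or more of the 6 fits, with adjusted p up to 0.0689 for Serpina3n, 0.0579 for C7, 0.0977 for Apod and 0.15 for Adamts8.

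The higher genes that passed in all 6 fits, chosen after their values were seen, included membrane and secreted proteins. Gpnmb, a membrane glycoprotein of osteoblasts and macrophages, stood at 46.6, 39.6 and 36.6 against 14.2, 15.9 and 11.6 CPM (1.55 ± 0.16, adjusted p = 0.00146). Penk, the precursor of enkephalin peptides, stood at 24.1, 26.3 and 19.2 against 8.55, 6.37 and 9.94 CPM (1.49 ± 0.16, adjusted p = 0.00146). Gelsolin, Gsn, an actin-severing protein, stood at 3147, 3511 and 3344 against 1789, 1215 and 1359 CPM (1.20 ± 0.15, adjusted p = 0.0026). The vasodilator peptide gene Adm (1.62 ± 0.26, adjusted p = 0.00914), the cytokine receptor genes Cntfr (1.61 ± 0.23, adjusted p = 0.00695) and Il11ra1 (1.35 ± 0.14, adjusted p = 0.00146), the junction gene Ppl (1.34 ± 0.14, adjusted p = 0.00146), Spock2 (1.19 ± 0.13, adjusted p = 0.00146) and Efemp1, a fibulin gene (1.22 ± 0.19, adjusted p = 0.00924), rose too. In each of them every stimulated library lay above every naive one.

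The lower genes that passed in all 6 fits, also chosen after their values were seen, included matrix and transport genes. Bcan, the proteoglycan brevican, stood at 8.42, 8.79 and 9.62 against 23.9, 27.9 and 21.3 CPM (log2 fold change -1.44 ± 0.14, adjusted p = 0.00146), and Hapln4, a link protein that binds hyaluronan to such proteoglycans, at 5.90, 3.90 and 3.999 against 9.79, 14.1 and 13.6 CPM (-1.44 ± 0.20, adjusted p = 0.00571). Slc13a5, a citrate transporter of osteoblasts, stood at 71.6, 65.4 and 59.0 against 122, 148 and 136 CPM (-1.05 ± 0.13, adjusted p = 0.00249). The transcription factor gene Creb3l3 (-1.44 ± 0.23, adjusted p = 0.00869), the carboxypeptidase gene Cpz (-0.99 ± 0.12, adjusted p = 0.00219), the adhesion gene Sdk2 (-0.97 ± 0.10, adjusted p = 0.00146), the transposase-derived gene Pgbd5 (-1.06 ± 0.11, adjusted p = 0.00146) and the calcium channel subunit gene Cacna2d3 (-0.96 ± 0.13, adjusted p = 0.0041) also fell in all 6. The matrix protease gene Adamts9 fell as well (-0.74 ± 0.11, adjusted p = 0.00763).

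Other genes among the 12 largest falls were stefins of neutrophils and genes of erythroid cells. The stefin genes of neutrophils, protease inhibitors, were highest in naive replicate 2: Stfa3 stood at 8.98, 27.4 and 6.02 CPM in naive and 2.77, 2.09 and 3.08 CPM in stimulated libraries (log2 fold change -2.42 ± 0.57, adjusted p = 0.039), Stfa2 at 8.73, 24.7 and 5.92 against 3.95, 2.37 and 2.90 CPM (-2.10 ± 0.51, adjusted p = 0.0418) and BC100530 at 24.4, 78.3 and 27.8 against 12.3, 6.58 and 11.8 CPM (-2.09 ± 0.51, adjusted p = 0.0459). They are paralogues that can share reads. A2m, a protease inhibitor, was highest in naive replicate 3, at 37.9, 48.9 and 168 against 24.7, 8.56 and 18.4 CPM (-2.30 ± 0.55, adjusted p = 0.044), as were the erythroid ubiquitin ligase gene Trim58 (-1.74 ± 0.41, adjusted p = 0.0377), Tspo2 (-1.58 ± 0.39, adjusted p = 0.0442), Tmcc2 (-1.32 ± 0.29, adjusted p = 0.0305) and Bfsp2 (-1.60 ± 0.39, adjusted p = 0.0402). All of these calls were lost without naive replicate 2, with adjusted p up to 0.154, and those other than Stfa3 and Stfa2 also without naive 3.

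Marrow cell lists gave few calls. Erythroid genes had the lowest median of the lists, -1.16 over 29 genes, with 0 calls. Their share of the counts was 1.32%, 0.817% and 2.24% in stimulated and 1.99%, 2.10% and 5.36% in naive replicates 1 to 3, and the median was -0.57 without naive replicate 3. Neutrophil maturation genes held 4 lower members of 25, the 3 stefins and Mmp9, where 2.46% of all genes fell. Their share of the counts was 0.819%, 0.485% and 0.898% against 0.725%, 1.32% and 0.822%. Precursor granule genes of neutrophils, B cell genes and T and NK cell genes held 0 calls. Of the macrophage genes the haemoglobin scavenger receptor gene Cd163 rose, from 18.3, 13.6 and 17.7 to 32.0, 33.8 and 25.1 CPM (0.87 ± 0.18, adjusted p = 0.0227), a call lost without naive 2 or 3 or stimulated 1 or 2.

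Cell cycle and DNA replication genes fell in part. Of 42, 10 fell and 0 rose, where 2.46% of all genes fell. All 42 had a log2 fold change below 0, and the median was -0.78. Cenpf, a kinetochore gene, stood at 13.4, 10.7 and 16.1 against 19.5, 29.1 and 36.8 CPM (log2 fold change -1.09 ± 0.24, adjusted p = 0.0305), and Kif23, a kinesin gene of cell division, at 14.2, 11.5 and 17.4 against 20.2, 31.8 and 32.7 CPM (-0.97 ± 0.23, adjusted p = 0.0348). Helicase subunit genes fell too, with Mcm4 at 34.4, 28.0 and 40.6 against 46.4, 52.1 and 60.3 CPM (-0.62 ± 0.15, adjusted p = 0.0392) and Mcm6 at a log2 fold change of -0.66 ± 0.17, adjusted p = 0.0446. Within naive bone, replicate 3 had the highest level of each of these 4 genes and of the erythroid share. The count was 0 without naive 2, naive 3, stimulated 1 or stimulated 2, 27 without naive 1 and 25 without stimulated 3. The part of marrow cell number in these values was not tested.

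**Figure D4:**
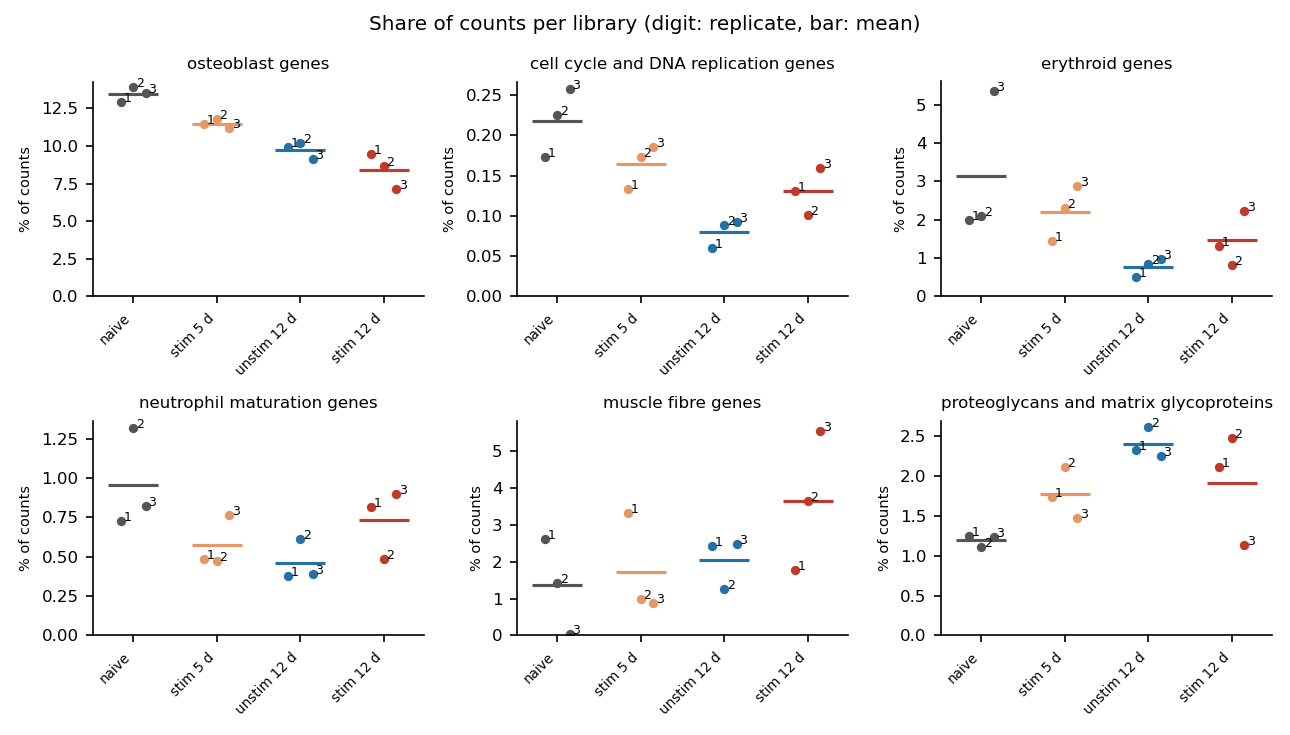
Each point is the percent of 1 library's counts taken by a gene list, with the replicate number beside it and the group mean as a bar, in naive, 5-day stimulated, 12-day unstimulated and 12-day stimulated bone. Osteoblast shares were 12.9% to 13.9% in naive and 7.13% to 9.46% in 12-day stimulated libraries, while erythroid and muscle shares of naive replicate 3, at 5.36% and 0.0296%, set it apart from the other naive libraries.

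Metabolic and stress lists held few calls, where 2.08% of all genes rose and 2.46% fell. Mitochondrially encoded genes all had log2 fold changes above 0 (13 of 13, median 0.46) and 1 passed, mt-Co3, a subunit of cytochrome oxidase, at 1878, 1846 and 2207 against 1482, 1287 and 1457 CPM (log2 fold change 0.49 ± 0.11, adjusted p = 0.0336). Nuclear respiratory chain genes had a median of 0.25 with 0 calls of 35, and ribosomal protein genes had 0 of 33. Insig1, a regulator of cholesterol synthesis, fell (-0.45 ± 0.10, adjusted p = 0.0304). Glucocorticoid-responsive Klf9 (0.66 ± 0.15, adjusted p = 0.0304) and Sult1a1 (0.92 ± 0.14, adjusted p = 0.00735) rose, as did the clock genes Bhlhe41 (0.54 ± 0.13, adjusted p = 0.0425) and Rora (0.51 ± 0.13, adjusted p = 0.044). Of the growth factor axis of IGF, the carrier gene Igfbp6 rose from 146, 109.9 and 117 to 285, 276 and 247 CPM (1.12 ± 0.22, adjusted p = 0.0178) and the growth hormone receptor gene Ghr rose as well (0.48 ± 0.12, adjusted p = 0.0449). The interleukin 1 receptor gene Il1r1 rose (1.02 ± 0.18, adjusted p = 0.0126), and Egr3 was the only immediate early gene of 29 that fell (-0.94 ± 0.23, adjusted p = 0.0402). Of these, Sult1a1 passed in all 6 fits, Il1r1 was lost without naive replicate 2, and the others were lost in 3 or more fits. Interferon, heat shock, adipocyte, endothelial and pericyte lists held 0 calls.

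Many of the named genes also differed from naive in bone that was not stimulated. In unstimulated bone at day 12, set against the same naive libraries, 1899 genes were higher and 2211 lower, or 21.8% of all genes. The total of 4110 became 1951 without naive replicate 2, 2638 without naive 3, 2376 without unstimulated 1 and 2528 without unstimulated 3. Because both comparisons use the naive libraries, their values are given side by side and only the direct comparison tests the difference. Of the 856 genes called in stimulated bone, 839 changed in the same direction in unstimulated bone. Shared naive libraries favour equal directions, so this count is no test of likeness. The log2 fold changes of unstimulated over naive bone passed for Smpd3 (-0.71, adjusted p = 0.00324), Col1a1 (-0.67, adjusted p = 0.00612) and Dmp1 (-1.27, adjusted p = 0.00375), all lower. Runx2 (-0.44, adjusted p = 0.00827) and Sp7 (-0.41, adjusted p = 0.018) passed as lower too. So did the osteoclast genes Siglec15 (-1.33, adjusted p = 0.00812), Mmp9 (-0.73, adjusted p = 0.0111) and Rufy4 (-0.84, adjusted p = 0.00625). Of all genes, 39.5% had unstimulated libraries that did not overlap the naive ones. The test passed for Gpnmb (1.98, adjusted p = 0.000209), Penk (1.85, adjusted p = 0.000289) and Serpina3n (2.37, adjusted p = 0.00466), all higher. Osteoblast genes had a median of -0.33 with 10 lower, matrix glycoproteins 0.68 with 13 higher, and cell cycle genes -1.66 with 42 lower of 42. The shares of all genes in unstimulated bone were 11.7% lower and 10.1% higher. In stimulated bone the medians of these lists were -0.54, 0.48 and -0.78. Cell cycle genes had log2 fold changes above 0 in stimulated over unstimulated bone, but none passed this direct comparison (Tpx2 0.84 ± 0.21, adjusted p = 0.152). Bglap (-0.23, adjusted p = 0.408), Alpl (-0.04, adjusted p = 0.88) and Col10a1 (-0.76, adjusted p = 0.126) did not pass in unstimulated bone. Alpl did not pass in stimulated bone either. The direct comparison of stimulated with unstimulated bone did not pass for Bglap (-0.65 ± 0.19, adjusted p = 0.202), Alpl (-0.48 ± 0.15, adjusted p = 0.221) or Col10a1 (-0.95 ± 0.33, adjusted p = 0.251).

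**Figure D5:**
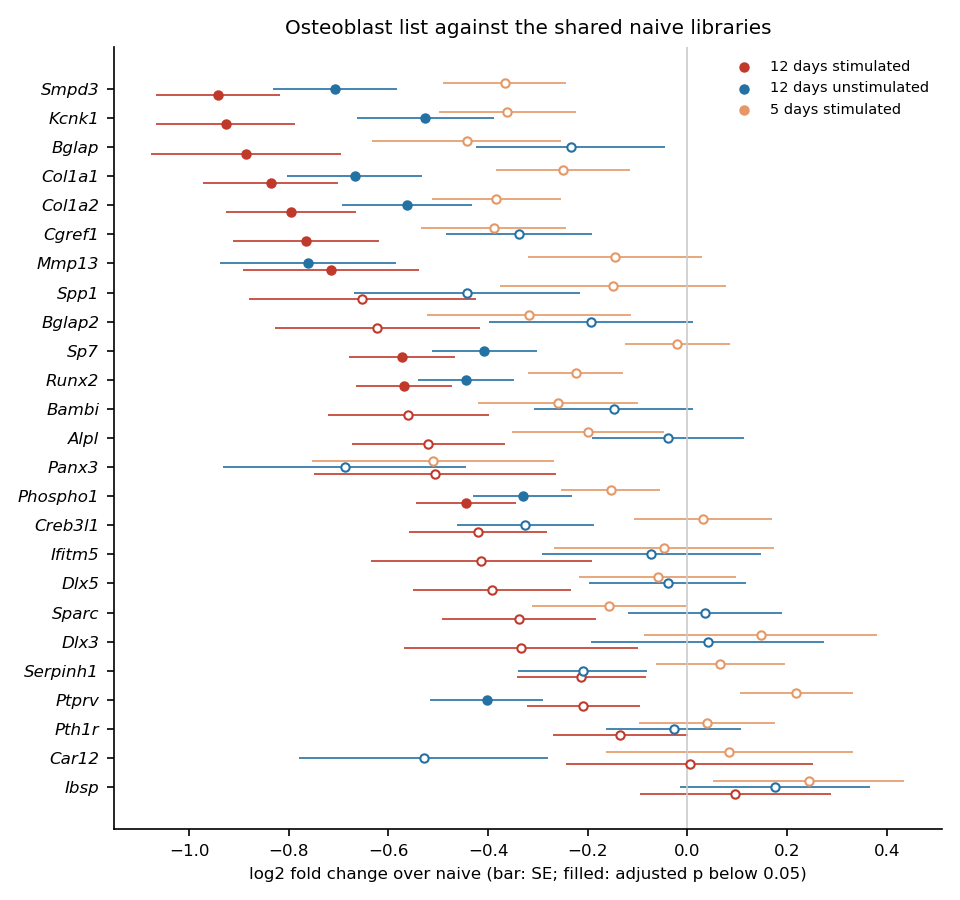
Each row is 1 of the osteoblast genes shown, with its log2 fold change over naive bone on the x axis in 12-day stimulated (red), 12-day unstimulated (blue) and 5-day stimulated bone (orange), bars for the SE, and filled points for an adjusted p below 0.05. Filled red points run from Smpd3, at -0.94, to Phospho1, at -0.44, and no orange point is filled.

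Tested directly, 12-day stimulated and unstimulated bone differed in 7 genes, all lower with stimulation, which is 0.0371% of 18851. Vcan and Lgr6 lay below naive bone with stimulation and above it without. Vcan, the large proteoglycan versican, was at 47.6, 61.7 and 37.7 CPM in stimulated, 145, 125 and 131 CPM in unstimulated and 88.6, 82.7 and 79.4 CPM in naive libraries (difference of stimulated from unstimulated -1.45 ± 0.20, adjusted p = 0.0419). Lgr6 was at 12.8, 12.4 and 9.14 CPM in stimulated, 27.4, 28.4 and 29.1 CPM in unstimulated and 18.7, 23.8 and 21.6 CPM in naive libraries (-1.30 ± 0.14, adjusted p = 0.0136). In all 7 genes the stimulated libraries lay below the unstimulated ones, as was the case or the reverse in 16.2% of all genes. For Vcan and Lgr6 the naive libraries overlapped neither group, but against naive only the fall of Lgr6 in stimulated and the rise of Vcan in unstimulated bone passed (0.68, adjusted p = 0.032), with 0.41, adjusted p = 0.0534 for Lgr6 in unstimulated and -0.77 ± 0.20, adjusted p = 0.0515 for Vcan in stimulated bone. Stc2, a secreted glycoprotein that inhibits the IGF-releasing protease PAPP-A, was at 13.3, 15.8 and 11.4 CPM in stimulated and 24.0, 32.2 and 29.7 CPM in unstimulated libraries (-1.08 ± 0.15, adjusted p = 0.0419), with naive bone at 10.8, 13.6 and 13.9 CPM. Its stimulated libraries overlapped the naive range.

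The other genes of the set were called lower with smaller differences, apart from Chit1. Ano1, a calcium-activated chloride channel gene, was at 42.8, 49.7 and 36.3 CPM in stimulated, 66.7, 70.1 and 74.0 CPM in unstimulated and 67.1, 65.9 and 65.2 CPM in naive libraries (-0.71 ± 0.10, adjusted p = 0.0419). Sdk2 was at 44.7, 40.0 and 33.2 against 60.8, 65.1 and 67.1 CPM (-0.71 ± 0.10, adjusted p = 0.0419) and Atp2b4, a plasma membrane calcium pump gene, at 78.0, 77.4 and 77.2 against 114, 105 and 124 CPM (-0.56 ± 0.08, adjusted p = 0.0419). Chit1, a chitinase gene of macrophages, lay below the level asked of named genes and is given to complete the set, at 0.513, 0.394 and 0.439 against 1.65, 2.005 and 1.97 CPM (-2.06 ± 0.30, adjusted p = 0.0419). On the higher side, the genes closest to passing included Fam110a (0.76 ± 0.12, adjusted p = 0.0738), the growth arrest gene Gadd45a (0.50 ± 0.10, adjusted p = 0.0802) and the basophil protease gene Mcpt8 (1.54 ± 0.31, adjusted p = 0.0913). The osteoblast factors did not pass (Runx2 -0.12 ± 0.10, adjusted p = 0.59, Sp7 -0.17 ± 0.11, adjusted p = 0.497), and osteoblast genes had a median difference of -0.20 with 0 calls. Leaving out 1 library gave 0 to 7 genes, 0 without any 1 of the unstimulated replicates, 3 without stimulated 1, 2 without stimulated 3 and 7 without stimulated 2. DESeq2 called 427 and a fit of the 6 libraries alone 0, and 2757 genes had an unadjusted p below 0.05.

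Against stimulated bone at day 5, edgeR called 0 genes at day 12, with 1987 at an unadjusted p below 0.05, while DESeq2 called 126 and limma-voom 0. On the lower side the smallest p among named genes belonged to Sp6, a paralogue of Sp7, at 8.27, 6.47 and 6.77 CPM at day 12, 13.8, 12.6 and 12.3 CPM at day 5 and 13.0, 12.8 and 13.9 CPM in naive bone (difference of day 12 from day 5 -0.85 ± 0.11, adjusted p = 0.107). Hey1 was at 19.3, 21.7 and 18.8 CPM at day 12 and 29.9, 29.8 and 31.7 CPM at day 5 (-0.61 ± 0.09, adjusted p = 0.113) and Bcan at 8.42, 8.79 and 9.62 against 14.8, 20.0 and 16.1 CPM (-0.92 ± 0.14, adjusted p = 0.113). On the higher side stood Clu, a secreted chaperone gene, at 546, 492 and 249.6 against 174, 125 and 212 CPM (1.33 ± 0.28, adjusted p = 0.223), and fibromodulin, Fmod, at 1699, 1344 and 1533 against 593, 545 and 778 CPM (1.26 ± 0.27, adjusted p = 0.223). For these 5 genes the day 12 and day 5 libraries did not overlap, as in 15.3% of all genes. At day 5 itself 40 genes were higher and 3 lower than in naive bone, 0.228% of all, and the total was 1 to 10 without naive 2 or 3 or any 5-day library and 82 without naive 1. Osteoblast genes at day 5 had a median of -0.16 and 0 calls. Gpnmb (1.22, adjusted p = 0.0185) and Penk (0.98, adjusted p = 0.0311) were among the 40, whereas Smpd3 (-0.37, adjusted p = 0.189) and Col1a1 (-0.25, adjusted p = 0.389) did not pass.

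The positions of the genes the results turn on are given on GRCm38, and all are protein-coding. Col1a1 is ENSMUSG00000001506, chromosome 11, 94936224 to 94953042, plus strand, and Smpd3 is ENSMUSG00000031906, chromosome 8, 106252548 to 106337988, minus strand. Gpnmb is ENSMUSG00000029816, chromosome 6, 49036546 to 49070929, plus strand, Lgr6 is ENSMUSG00000042793, chromosome 1, 134983301 to 135105276, minus strand, and Vcan is ENSMUSG00000021614, chromosome 13, 89655312 to 89742509, minus strand. Some named genes overlap others in the annotation, among them Runx2 with Supt3, Smpd3 with Prmt7, Col10a1 with Nt5dc1, Ogn with Cenpp and Il11ra1 with Galt. No source used here gives the strand setting of the counting, so reads of overlapping genes cannot be told apart.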

How the data were processed

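RNA-seq of 15 calcaneus libraries in 5 groups was used, from poly-A libraries per the labels' protocols. The authors deposited expected counts per gene, all of them whole numbers, for 55426 rows on GRCm38. Per the submitters' processing notes the tools were cutadapt 2.3, FastQC 0.11.8, MultiQC 1.7, STAR 2.7.8a and RSEM 1.3.3. Annotation release and strand setting: not given in the sources used here. Symbols matched GENCODE M21 for 55240 gene IDs (99.7%). The 5 rows of transgene sequences name no mouse gene.

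Unstimulated 5-day replicates 1 and 2 varied by less than other bone pairs (biological coefficient of variation 2.64%, against 13.2% to 33.2% over 14 other pairs) and were summed as 1 library. Naive pairs stood at 16.0%, 33.2% and 26.5%, and 12-day stimulated pairs at 17.8%, 20.6% and 20.8%. edgeR 4.0.16 in R 4.3.3 (filterByExpr with a minimum count of 10 and total of 15, TMM scaling, robust quasi-likelihood fit over all 14 bone libraries) tested each contrast with Benjamini-Hochberg adjustment over 18851 genes at 0.05, and called 92% and 98% of genes simulated at log2 fold changes of -2 and 2, and 82% and 84% at -1 and 1, in 18620 genes for 12-day stimulated against naive bone. Each of these rates rests on 50 genes, drawn from genes with a mean above 5 CPM over the bone libraries. Rates for genes of lower level were not simulated. Whether the rates hold for the sequenced libraries, whose naive pairs differ in spread, was not tested. CPM use the TMM-scaled totals. SE is the size of a log2 fold change over the root of its F statistic. Bone totals ran from 19.3 to 35.0 M counts. Alternatives were DESeq2 1.42.0, limma-voom (limma 3.58.1), other scalings and filters, a replicate block, the 6 libraries alone and leaving out each library.

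Lists and named genes were chosen with earlier results of these data known. Named genes were the 12 called protein-coding genes per direction with the largest change, separate groups and at least 5 CPM, up to 6 members per list by adjusted p, a set of bone markers, and the 8 smallest p per direction in the comparisons with unstimulated and 5-day stimulated bone. Others were added after their values were seen: genes that passed in all fits with a library left out, and Aspn, Mfap4, Podn and further list members that complete a stated count. Some genes that these rules name are not reported here. Of 52 lists, 51 were summarised, and not all of these are reported here. The labels do not say that replicate numbers pair libraries, and in no comparison did all 3 same-numbered pairs correlate above 0.1. No sex-linked gene is named.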

Additional observations from a re-analysis of the deposited data

Results flagged for a closer look

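For 7 genes the change from naive bone differed between stimulated and unstimulated bone at day 12, in a direct test of that difference (edgeR's quasi-likelihood test, adjusted over all genes). The difference, stimulated minus unstimulated on the log2 scale, was -1.30 ± 0.14, adjusted p = 0.0136 for Lgr6, the R-spondin receptor gene, and -1.45 ± 0.20, adjusted p = 0.0419 for Vcan, the versican gene. It was -1.08 ± 0.15, adjusted p = 0.0419 for Stc2, -0.71 ± 0.10, adjusted p = 0.0419 for Sdk2, -0.71 ± 0.10, adjusted p = 0.0419 for Ano1, -0.56 ± 0.08, adjusted p = 0.0419 for Atp2b4 and -2.06 ± 0.30, adjusted p = 0.0419 for Chit1. In each of the 7 all 3 stimulated libraries lay below all 3 unstimulated ones, a pattern that 16.2% of all genes showed in either direction. With 1 library left out, the highest adjusted p of Lgr6 was 0.0886 and it passed in 3 of 6 fits. The others passed in 1 or 0 fits.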

How the results depend on the processing

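No named gene past the threshold changed sign under an alternative. Against naive, 12-day stimulated bone gave 1951 genes with DESeq2, 1517 with limma-voom, 1294 with the near-identical pair kept as 2 libraries and 5 with the 6 libraries alone, and 108 to 1307 with 1 library left out. Higher genes outnumbered lower ones with total counts (382 and 249), the 6 libraries alone (4 and 1), without naive replicate 3 (106 and 86) and without stimulated 3 (606 and 486), unlike the 393 and 463 reported. Against 12-day unstimulated bone the count was 427 with DESeq2, 1 with DESeq2's size factors, 1 with total counts, 32 with no filter, 11 with the pair apart, 0 with the 6 libraries alone and 0 to 7 with 1 library left out. Against 5-day stimulated bone it was 126 with DESeq2, 1 with the pair apart and 0 to 0 with 1 left out. For 12-day unstimulated against naive bone it was 6198 with limma-voom and 1951 to 4062 with 1 left out. For 5-day stimulated against naive bone it was 689 with DESeq2, 83 with total counts, 159 with the pair apart, 819 with limma-voom and 1 to 82 with 1 left out. With the replicate block and the pair apart together the 5 counts, in the same order, were 1073, 3, 0, 4181 and 90, where the pair apart without the block gave 1294, 11, 1, 4524 and 159. Deviations from the group means of same-numbered libraries 1 to 3 correlated at -0.373, -0.0720 and -0.274 between stimulated and naive bone and at -0.0941, -0.158 and 0.164 between stimulated and unstimulated bone at day 12, which gives no sign of a pairing by number. Of the single genes' values under the alternatives, 4503 kept direction and side of the threshold, 536 lost and 277 gained the call, and 29, of 14 genes that did not pass, changed sign. Against naive, Fam110a (-0.0069) was 0.0073 with DESeq2, 0.0038 with its size factors, 0.023 with total counts, 0.011 with no filter, 0.0062 with the block, 0.0071 with the pair apart and 0.0015 with the 6 libraries alone. With limma-voom Ampd3 was -0.00187, Fgf23 -0.055, Mbp 0.20 and Prx 0.55. With 1 library left out, log2 fold changes ran from -0.049 to 0.039 for Fam110a, -0.13 to 0.038 for Gadd45a, -0.058 to 0.12 for Ampd3, -0.45 to 0.064 for Mcpt8, -0.47 to 0.037 for Prss34 and -0.045 to 0.19 for Stc2. They ran from -0.21 to 0.50 for Mepe, -0.43 to 1.24 for Fgf23, -0.18 to 0.23 for Ibsp and -0.36 to 0.015 for Tnfrsf11b. For the Schwann cell genes they ran from -1.07 to 0.062 for Ncmap, -0.0028 to 0.97 for Erbb3, -1.03 to 0.74 for Mbp and -1.04 to 1.36 for Prx. Of the list medians under the alternatives 384 moved by less than their spread between libraries and 32 by more, and 37 values, of 18 lists, changed sign. The causes of these differences were not tested. Groups of 3 libraries limit the calls, and at 19.3 M counts and above, genes under the count minimum were not tested.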

Other observations

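Other members of the lists passed singly. Angpt1, a vessel and niche factor gene (log2 fold change 0.50 ± 0.09, adjusted p = 0.0126), Cd34, a stem and endothelial cell marker (0.79 ± 0.20, adjusted p = 0.0421), and Gas6, a ligand of TAM receptors (0.65 ± 0.13, adjusted p = 0.0205), rose. Cdh15, a cadherin of muscle progenitors (-0.77 ± 0.12, adjusted p = 0.00805), fell in all 6 fits with a library left out, Asns, an asparagine synthetase gene of the amino acid response, fell (-0.57 ± 0.14, adjusted p = 0.0426), and so did the membrane protease gene Mmp16 (-0.61 ± 0.14, adjusted p = 0.0342). Adamts5, an aggrecan-degrading protease gene, rose (0.76 ± 0.19, adjusted p = 0.0439).

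The eYFP sequence of the Ai32 allele had between 6598 and 21422 counts in each library of naive, 5-day stimulated and both kinds of 12-day bone. Naive replicate 3, whose muscle fibre genes took 0.0296% of its counts, held eYFP at 331 CPM, while stimulated replicate 3, whose muscle fibre genes took 5.56%, held it at 568 CPM. Naive replicates 1 and 2 held more, at 760 and 574 CPM, with smaller muscle shares than stimulated replicate 3. The mCherry and tdTomato rows were at 0 in all libraries of the naive, 5-day stimulated and 12-day groups, and eGFP had 12 to 62 counts in the 6 libraries compared.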
